A study of Rattus norvegicus with 9 samples.

Results

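The 9 genes followed here encode feedback inhibitors of ERK signalling in rat chondrocytes, the matrix-forming cells of cartilage. They were picked by gene name for this known role, with earlier results of these data known. All 9 had a row among the 18924 genes of the deposited table. They are the MAP kinase phosphatases Dusp4, Dusp5 and Dusp6, the Sprouty genes Spry1, Spry2 and Spry4, and the Spred genes Spred1, Spred2 and Spred3. Primary chondrocytes of SD rats, grown in DMEM with fetal bovine serum and used at passage 1 or 2, were sampled at 24 h in 3 groups of 3 libraries. RPTi cells received rat plasma, thrombin and an inhibitor of unstated identity, RPT cells received rat plasma and thrombin, and RP cells received rat plasma alone, so plasma was common to all groups. Thrombin is the clotting protease that also signals through protease-activated receptors, and the series asks how it acts on chondrocytes by way of MEK, ERK and Stat3. No group received the inhibitor without thrombin, and no dose is given. The labels leave unstated whether replicate libraries stem from different animals or cultures, so the p-values reflect library-to-library spread alone, which may be technical.

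In the ERK cascade, a growth factor or G protein-coupled receptor activates RAS, which acts through RAF and MEK to phosphorylate ERK. Active ERK induces transcription of its own inhibitors. The dual-specificity phosphatases remove the activating phosphates from ERK, Sprouty proteins act near the receptor and at RAF, and Spred proteins bring the RAS-inactivating protein neurofibromin to the membrane. In growth plate cartilage, ERK signalling downstream of fibroblast growth factor receptors restrains chondrocyte growth, and mice that lack Spred2 or Dusp6 are described as short.

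Library totals were 31914905 to 37125039 counts in RPTi, 31877265 to 37009972 in RPT and 33520888 to 43962783 in RP. The 8 chondrocyte markers, Col2a1 and Acan among them, were present in every library and summed to 71564 to 77376 CPM (counts scaled to a common library total) in RPTi, 29214 to 31032 CPM in RPT and 45982 to 47285 CPM in RP. Most of this sum was Col2a1, Acan and Col11a1. In RPTi against RP, 6 of the 8 were called higher, against 11.9% of all tested genes, and Sox9 and Col11a1 did not pass. Sox9 averaged 134 CPM in RPTi and 144 CPM in RP. Macrophage markers summed to 24.5 to 28.8 CPM in RPTi, 44.5 to 46.3 CPM in RPT and 23.4 to 27.3 CPM in RP. Most of it was Cd14, while the defining leukocyte gene Ptprc never exceeded 4 counts. Of the 3 macrophage genes tested, Cd14 and Cd68 were called higher in RPT than in RP, and Csf1r was called lower. Endothelial markers were scarce, and their sum was also highest in RPT. They summed to 2.16 to 2.67 CPM in RPTi, 6.83 to 6.93 CPM in RPT and 3.22 to 4.12 CPM in RP. Plvap and Flt1 made up most of this and were called lower in RPTi than in RPT and higher in RPT than in RP. Tek and Kdr instead had their lowest means in RPT, at 0.242 and 0.146 CPM. Tek passed in no comparison, Kdr was below the filter, and the defining gene Cdh5 never exceeded 2 counts. The fibroblast markers summed to 15956 to 17492 CPM in RPTi, 9450 to 10334 CPM in RPT and 15631 to 16951 CPM in RP, nearly all of it the collagen genes Col1a1 and Col3a1. Of the other fibroblast markers, Dpt was lowest in RPT like that sum, at 3.24 CPM in RPTi, 1.40 CPM in RPT and 2.56 CPM in RP. Pdgfra, Thy1 and Pi16 did not follow it. Pdgfra averaged 148 CPM in RPTi, 240 CPM in RPT and 281 CPM in RP. Thy1 averaged 394 CPM in RPTi, 539 CPM in RPT and 557 CPM in RP. Pi16 averaged 2.65 CPM in RPTi, 3.26 CPM in RPT and 4.36 CPM in RP. The part of these shifts in the results below was not tested, and in bulk RNA fewer cells of a type and less RNA per cell cannot be told apart.

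Of the feedback genes, 7 were highest with thrombin and lowest once the inhibitor was added, below even their level in plasma alone. Spred1 was lowest with the inhibitor too but did not pass between thrombin and plasma alone, and Spry1 passed in no comparison. Between RPTi and RPT, 8 of the 9 were lower and Spry1 did not pass, with a median log2 fold change of -2.26 against -0.00827 over all 13856 tested genes. Of all tested genes, 21.1% were called lower and 20.4% higher in this comparison (edgeR, adjusted p below 0.05). Between RPT and RP, 7 of the 9 were higher, with a median log2 fold change of 0.98 against -0.000707 over all genes, where 13.6% of tested genes were called higher and 15.2% lower. Between RPTi and RP, 8 of the 9 were lower, with a median of -0.97 against -0.00643, where 12.3% of tested genes were called lower and 11.9% higher. These comparisons share libraries, so their values are not independent of each other. All 9 genes passed the filter on low counts. TMM factors rescale each library by the log ratios of its genes to a reference library, with the most extreme genes trimmed. Without them, 38.4% of all called genes were higher in RPTi than in RPT, against 49.2% with them. In RPTi against RP it was 36.6% without them, against 49.1% with them. The counts of called feedback genes were the same with and without these factors.

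**Figure D1:**
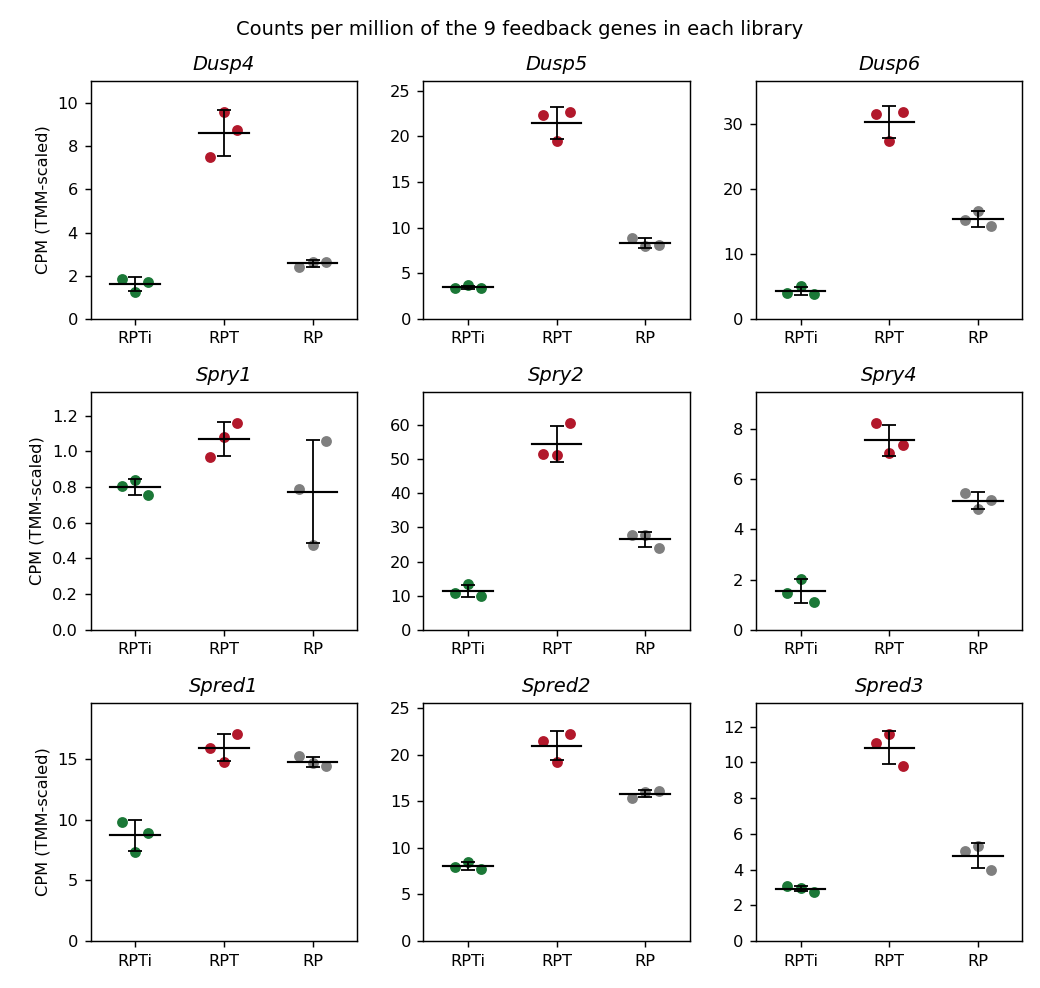
TMM-scaled CPM (vertical axes, each from 0) of the 9 feedback genes in the RPTi, RPT and RP libraries. Points are libraries, horizontal lines are means and error bars are SD over 3 libraries. In every panel but that of Spry1 the RPTi libraries lie below all others, and only for Spry1 and Spred1 do the RPT and RP libraries overlap. The share of all tested genes without such overlap was not counted.

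**Figure D2:**
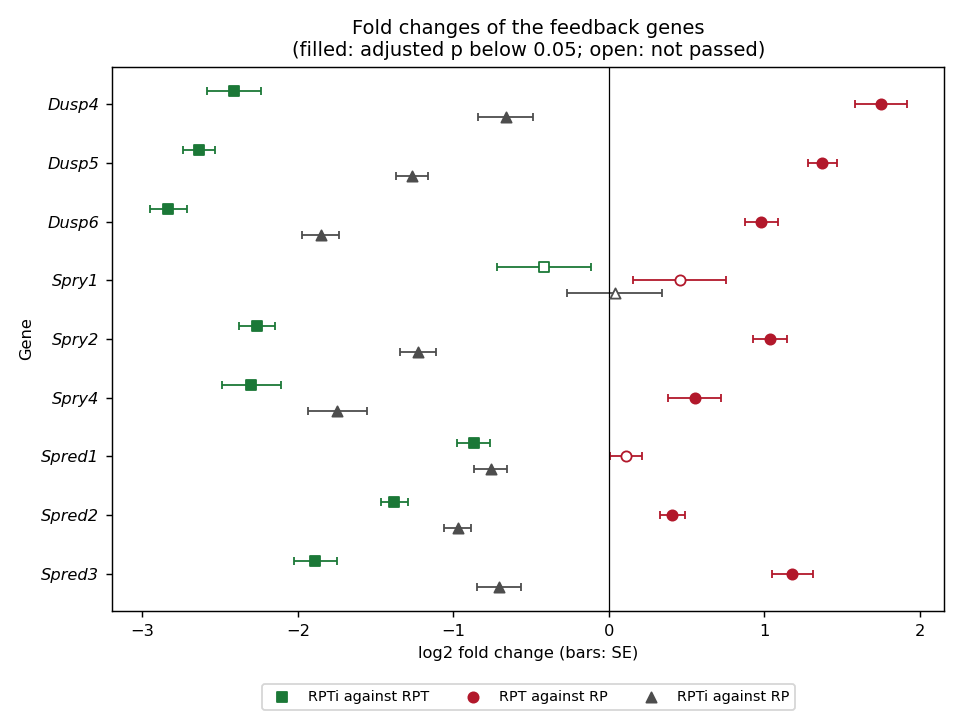
Log2 fold changes (horizontal axis) with their SE for the 9 feedback genes (vertical axis) in RPTi against RPT, RPT against RP and RPTi against RP, from edgeR. Filled symbols passed an adjusted p of 0.05. RPTi against RPT ranges from -2.83 for Dusp6 to -0.42 for Spry1, and RPT against RP from 0.11 for Spred1 to 1.75 for Dusp4.

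Dusp6 (ENSRNOG00000023896), a cytoplasmic phosphatase selective for ERK, was at 3.92, 5.04 and 3.85 CPM in the RPTi libraries, against 31.7, 27.5 and 31.9 CPM in the RPT libraries and 15.2, 16.7 and 14.3 CPM in the RP libraries. The 3 groups did not overlap. Dusp6 was 7.13-fold lower in RPTi than in RPT (log2 fold change -2.83, SE 0.12, adjusted p = 2.60e-09), the largest fall among the 9 genes and the 68th lowest fold change of the 13856 genes tested. It was 1.97-fold higher in RPT than in RP (0.98, SE 0.11, adjusted p = 1.99e-05) and 3.61-fold lower in RPTi than in RP (adjusted p = 3.20e-07).

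Dusp5 (ENSRNOG00000014061), a nuclear phosphatase that also anchors ERK in the nucleus, was at 3.39, 3.65 and 3.32 CPM in RPTi, against 22.4, 19.5 and 22.7 CPM in RPT and 8.91, 7.92 and 8.06 CPM in RP. Again no library of one group reached the range of another. The fall with the inhibitor was 6.23-fold against RPT (-2.64, SE 0.10, adjusted p = 1.61e-09) and 2.40-fold against RP (-1.27, SE 0.10). Thrombin added to plasma gave a rise of 1.37 on the log2 scale in RPT against RP (SE 0.09, adjusted p = 5.60e-07).

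Dusp4 (ENSRNOG00000011921), a nuclear phosphatase that acts on ERK and on other MAP kinases, was at 1.86, 1.26 and 1.70 CPM in RPTi, against 7.50, 9.60 and 8.78 CPM in RPT and 2.40, 2.65 and 2.64 CPM in RP. The RPT libraries stood far above the other 2 groups, which lay near each other without overlap. Dusp4 had the largest rise of the 9 genes in RPT against RP, 3.36-fold (1.75, SE 0.16, adjusted p = 6.38e-06). It was 5.33-fold lower in RPTi than in RPT (-2.41, SE 0.17, adjusted p = 2.28e-07). Against plasma alone it was 1.58-fold lower (-0.66, SE 0.18, adjusted p = 0.0163), a call that was lost without RPTi replicate 2 (-0.52, adjusted p = 0.0636).

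The 3 phosphatases thus ran in one order for their rise in RPT against RP, Dusp4, Dusp5, Dusp6, and in the reverse order for their fall in RPTi against RP. Both comparisons use the same RP libraries, so these orders are not independent of each other. Their log2 ratios within a library, which no scaling between libraries can move, were tested over the 3 groups. The calls on such ratios were less stable than those on fold changes, as given below. The log2 ratio of Dusp5 to Dusp6 counts was -0.29 ± 0.15 in RPTi, -0.50 ± 0.0054 in RPT and -0.89 ± 0.16 in RP (SD, n = 3). It differed over the groups (exact permutation test of the F statistic, p = 0.00357, the smallest that this design can give, and 0.0161 adjusted over 9 pairs). That of Dusp4 to Dusp6 was -1.41 ± 0.50 in RPTi, -1.82 ± 0.28 in RPT and -2.58 ± 0.13 in RP, with an adjusted exact permutation p = 0.0459. The ratio of Dusp4 to Dusp5 did not pass (adjusted exact permutation p = 0.075).

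Promoter windows were read for the 9 genes, most of which were called in the same directions. The windows run from 250 bases before to 50 bases after an annotated start site, as RefSeq gives them on GRCr8, another build than the Rnor_6.0 of the counts, and 8 of the 9 genes matched. Each was searched on both strands for the ETS core CCGGAA, the AP-1 site TGANTCA, the cyclic AMP response element TGACGTCA and the CArG box bound by serum response factor. Matches are in capitals, and 4 windows are shown: those of Dusp5 and Spry4 for their matches, that of Dusp6 as the gene with the largest fall, and that of Spry1, which passed in no comparison.
Dusp5, GRCr8 chr1:262543524-262543823, plus strand: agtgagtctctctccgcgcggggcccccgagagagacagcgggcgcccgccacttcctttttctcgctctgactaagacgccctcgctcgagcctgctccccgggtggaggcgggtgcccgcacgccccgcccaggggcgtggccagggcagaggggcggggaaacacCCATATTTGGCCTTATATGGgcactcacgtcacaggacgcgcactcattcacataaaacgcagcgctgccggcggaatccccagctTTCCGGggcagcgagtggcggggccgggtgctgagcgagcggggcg
Dusp6, GRCr8 chr7:35979354-35979653, plus strand: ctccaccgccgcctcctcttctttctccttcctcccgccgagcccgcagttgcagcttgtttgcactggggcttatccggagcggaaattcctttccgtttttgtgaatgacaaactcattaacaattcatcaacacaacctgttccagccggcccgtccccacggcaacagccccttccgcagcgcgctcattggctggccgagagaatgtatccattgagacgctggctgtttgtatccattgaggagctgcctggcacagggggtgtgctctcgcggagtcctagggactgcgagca
Spry4, GRCr8 chr18:30702497-30702796, minus strand: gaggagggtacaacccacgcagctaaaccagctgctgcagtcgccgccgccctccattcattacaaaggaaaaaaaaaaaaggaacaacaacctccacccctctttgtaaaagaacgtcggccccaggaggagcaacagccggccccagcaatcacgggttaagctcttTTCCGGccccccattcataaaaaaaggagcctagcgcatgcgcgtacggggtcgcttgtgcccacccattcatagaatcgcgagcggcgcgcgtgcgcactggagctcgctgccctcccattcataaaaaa
Spry1, GRCr8 chr2:122485097-122485396, plus strand: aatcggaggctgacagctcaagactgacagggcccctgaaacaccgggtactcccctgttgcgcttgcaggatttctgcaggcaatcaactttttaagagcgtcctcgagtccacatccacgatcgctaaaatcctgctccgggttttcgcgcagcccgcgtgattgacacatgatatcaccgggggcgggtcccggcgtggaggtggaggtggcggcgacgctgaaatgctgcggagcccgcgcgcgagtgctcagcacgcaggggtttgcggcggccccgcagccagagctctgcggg

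The Dusp5 window held 2 CArG boxes side by side, which start at positions -82 and -72 counted from the start site as 0, and an ETS core at position 4. A CArG box was found in 1.64% of the 33469 RefSeq windows of this length, and Dusp5 was the only one of the 8 genes with one. ETS cores also lay in the Spry4 window at -81 and in 1 of the 2 Spry2 windows at -171, against 15% of all windows. None of the 9 windows of these genes held the AP-1 letters (7.33% of all windows) or the cyclic AMP response element (1.83%). A match says only that the letters are there, and the absence of one only that they are not in this window.

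Among the Sprouty genes, Spry2 (ENSRNOG00000010058), whose protein binds the ubiquitin ligase Cbl and the adaptor Grb2, was the most abundant. It was at 10.9, 13.3 and 9.85 CPM in RPTi, against 51.5, 51.1 and 60.6 CPM in RPT and 27.7, 27.8 and 24.0 CPM in RP. The 3 groups were well apart. Spry2 was 4.80-fold lower in RPTi than in RPT (-2.26, SE 0.12, adjusted p = 1.11e-08), 2.05-fold higher in RPT than in RP (1.04, SE 0.11, adjusted p = 1.58e-05) and 2.34-fold lower in RPTi than in RP (adjusted p = 8.69e-06).

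Spry4 (ENSRNOG00000013851), which inhibits RAF activation, was at 1.47, 2.03 and 1.12 CPM in RPTi, against 8.24, 7.03 and 7.38 CPM in RPT and 5.47, 4.79 and 5.18 CPM in RP. Its RPTi libraries were far below the other 2 groups. The fall was 4.92-fold in RPTi against RPT (-2.30, SE 0.19, adjusted p = 8.18e-07) and 3.36-fold in RPTi against RP (-1.75, SE 0.19, adjusted p = 2.86e-05). The rise in RPT against RP was smaller, 1.47-fold (0.55, SE 0.17, adjusted p = 0.0285). That call was lost when RP replicate 1 (adjusted p = 0.0545), RP replicate 2 (0.0897), RP replicate 3 (0.0609), RPT replicate 1 (0.101) or RPT replicate 3 (0.0507) was left out, at log2 fold changes of 0.60, 0.50, 0.55, 0.48 and 0.57 in that order.

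Spry1 (ENSRNOG00000025371) was near the limit of detection, with 26 to 29 counts per library in RPTi, 35 to 38 in RPT and 16 to 40 in RP. Its levels were 0.807, 0.840 and 0.754 CPM in RPTi, against 0.967, 1.08 and 1.16 CPM in RPT and 0.791, 0.477 and 1.06 CPM in RP. The RPTi libraries lay below the RPT libraries, and the RP libraries overlapped both. Its log2 fold change of -0.42 (SE 0.30) in RPTi against RPT did not pass (adjusted p = 0.294), nor did 0.45 (SE 0.30) in RPT against RP (adjusted p = 0.288) or 0.04 (SE 0.31) in RPTi against RP (adjusted p = 0.944). At this depth an SE of 0.30 leaves a moderate change undetectable.

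The log2 ratio of Spry1 to Spry2 was -3.79 ± 0.15 in RPTi, -5.65 ± 0.09 in RPT and -5.14 ± 0.67 in RP (SD, n = 3; adjusted exact permutation p = 0.0429). That of Spry1 to Spry4 was -0.89 ± 0.35 in RPTi, -2.80 ± 0.23 in RPT and -2.78 ± 0.51 in RP (adjusted exact permutation p = 0.0459). The mean of each ratio in RPTi was above that in RPT, by 1.86 and 1.91 on the log2 scale. The test covered the 3 groups at once, so no 2 groups were compared alone. The ratio of Spry2 to Spry4 was 2.90 ± 0.21 in RPTi, 2.85 ± 0.20 in RPT and 2.36 ± 0.16 in RP, with the lower value in plasma alone (adjusted exact permutation p = 0.0459).

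In RPTi against RPT, each Spred gene fell by less than each phosphatase gene, Spry2 and Spry4, on the fitted folds. Spred2 (ENSRNOG00000004888) was at 7.96, 8.49 and 7.73 CPM in RPTi, against 21.5, 19.3 and 22.2 CPM in RPT and 15.4, 16.1 and 16.1 CPM in RP, with no overlap between the groups. It was 2.60-fold lower in RPTi than in RPT (-1.38, SE 0.09, adjusted p = 6.38e-08), 1.33-fold higher in RPT than in RP (0.41, SE 0.08, adjusted p = 0.00256) and 1.96-fold lower in RPTi than in RP (adjusted p = 5.25e-06).

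Spred1 (ENSRNOG00000005209), the Spred protein whose human gene is mutated in Legius syndrome, was at 9.85, 7.36 and 8.91 CPM in RPTi, against 15.9, 14.8 and 17.0 CPM in RPT and 15.2, 14.7 and 14.4 CPM in RP. The RPT and RP libraries overlapped, and the RPTi libraries lay below both. Spred1 did not pass in RPT against RP (0.11, SE 0.10, adjusted p = 0.482). With the inhibitor it was lower by 1.83-fold against RPT (-0.87, SE 0.11, adjusted p = 3.07e-05) and by 1.69-fold against RP (-0.76, SE 0.11, adjusted p = 0.000237).

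Spred3 (ENSRNOG00000051915), the least studied of the Spred genes, was at 3.06, 2.94 and 2.76 CPM in RPTi, against 11.1, 11.6 and 9.79 CPM in RPT and 5.07, 5.30 and 3.96 CPM in RP. No groups overlapped. It was 3.70-fold lower in RPTi than in RPT (-1.89, SE 0.14, adjusted p = 2.99e-07), 2.27-fold higher in RPT than in RP (1.18, SE 0.13, adjusted p = 2.87e-05) and 1.63-fold lower in RPTi than in RP (-0.71, SE 0.14, adjusted p = 0.00302).

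The ratios of Spred3 to its relatives differed over the groups, and by the group means Spred3 was relatively highest in RPT. The log2 ratio of Spred2 to Spred3 was 1.46 ± 0.08 in RPTi, 0.95 ± 0.22 in RPT and 1.74 ± 0.24 in RP (SD, n = 3; adjusted exact permutation p = 0.0161). The ratio of Spred1 to Spred3 was 1.56 ± 0.21 in RPTi, 0.56 ± 0.23 in RPT and 1.64 ± 0.20 in RP (adjusted exact permutation p = 0.0459), and that of Spred1 to Spred2 did not pass (adjusted exact permutation p = 0.0522). Of the 9 pairs within the 3 families, 7 passed in all. This count was 3 with an offset of 2 added to each count in place of 0.5, 2 without RP replicate 1, and 1 without RP replicate 3, RPTi replicate 1 or RPTi replicate 3. With the replicate number as a block it was 0, where the smallest p that the exact permutation test allows was 0.0278.

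Levels were compared between genes as FPKM, which divides by gene length. Spry2 led in each group, at 6.09 ± 0.95 FPKM in RPTi, 30.7 ± 2.87 FPKM in RPT and 14.8 ± 1.10 FPKM in RP (SD, n = 3). In RPT it was followed by Spred2 (12.6 ± 0.98 FPKM), Dusp6 (11.2 ± 0.99), Spred1 (9.94 ± 0.71) and Dusp5 (9.07 ± 0.79), where the libraries of each gene overlapped those of the next. Spred3 (4.71 ± 0.42 FPKM), Dusp4 (2.21 ± 0.25), Spry4 (1.62 ± 0.15) and Spry1 (0.438 ± 0.035) came after them in RPT, with no overlap between neighbours. In RPTi the order began with Spry2, Spred1 (5.17 ± 0.74 FPKM) and Spred2 (4.62 ± 0.21), where the libraries of neighbours overlapped. Dusp6 (1.51 ± 0.23 FPKM) and Dusp5 (1.39 ± 0.066) overlapped there, with Spred3 (1.21 ± 0.057) just below them. Dusp4 (0.393 ± 0.076 FPKM), Spry4 (0.315 ± 0.094) and Spry1 (0.312 ± 0.016) overlapped at the low end. In RP the order was Spry2, then Spred2 and Spred1 (9.41 ± 0.27 and 9.11 ± 0.23 FPKM, within their spread), Dusp6 (5.63 ± 0.41), Dusp5 (3.46 ± 0.22), Spred3 (2.05 ± 0.29), Spry4 (1.09 ± 0.075), Dusp4 (0.650 ± 0.038) and Spry1 (0.314 ± 0.12).

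Summed by family, the 3 phosphatases reached 3.29 ± 0.23 FPKM in RPTi, 22.5 ± 1.58 FPKM in RPT and 9.74 ± 0.37 FPKM in RP. The 3 Sprouty genes summed to 6.72 ± 1.06 FPKM in RPTi, 32.7 ± 2.88 FPKM in RPT and 16.2 ± 1.00 FPKM in RP. The 3 Spred genes summed to 11 ± 0.60 FPKM in RPTi, 27.3 ± 1.39 FPKM in RPT and 20.6 ± 0.23 FPKM in RP. Spred transcripts were therefore the largest of the 3 sums in RPTi and in RP, and Sprouty transcripts the largest in RPT. Spry2 made up 90.7% ± 0.30 of the Sprouty sum in RPTi, 93.7% ± 0.62 in RPT and 91.3% ± 1.50 in RP. Dusp6 made up 45.7% ± 3.82 of the phosphatase sum in RPTi, 49.9% ± 1.02 in RPT and 57.8% ± 2.42 in RP, and Dusp4 made up 12.1% ± 2.99 in RPTi, 9.90% ± 1.76 in RPT and 6.68% ± 0.55 in RP. Spred3 made up 17.3% ± 2.21 of the Spred sum in RPT, against 11.01% ± 0.57 in RPTi and 9.96% ± 1.32 in RP.

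**Figure D3:**
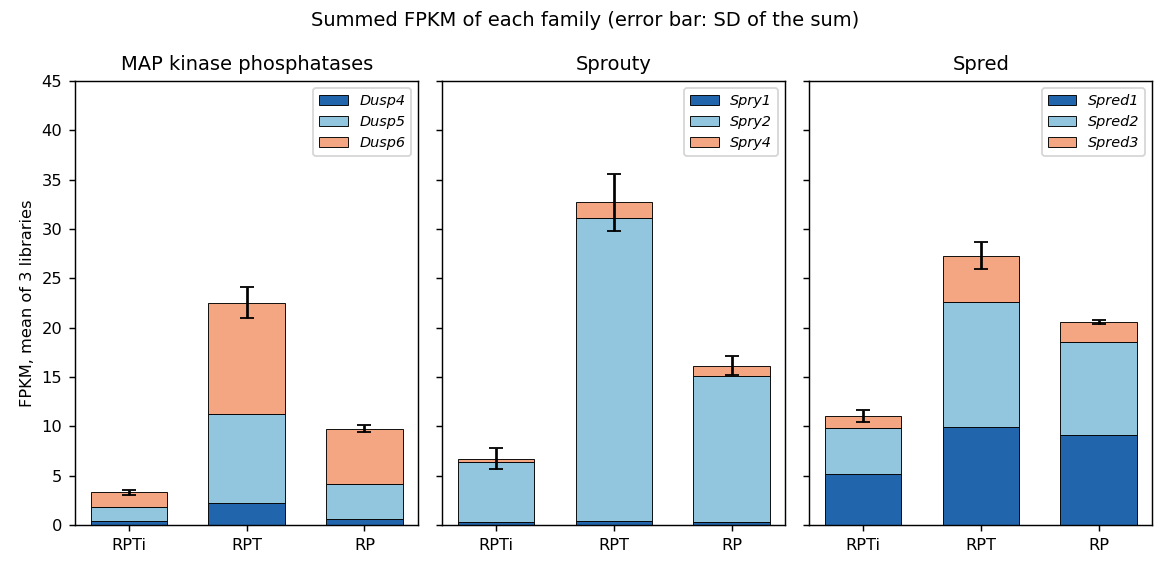
Mean FPKM (vertical axis, from 0) of the phosphatase, Sprouty and Spred genes in RPTi, RPT and RP, stacked by gene, with error bars for the SD of the family sum over 3 libraries. The Spred stack is the tallest in RPTi at 11 FPKM, and the Sprouty stack is the tallest in RPT at 32.7 FPKM.

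The wider pathway was read from 4 lists, chosen with earlier results of these data known. Their counts stand beside shares over all tested genes of 20.4% higher and 21.1% lower in RPTi against RPT. These shares were 13.6% and 15.2% in RPT against RP, and 11.9% and 12.3% in RPTi against RP. Of 12 other transcripts induced by ERK, 10 were lower and 1 higher in RPTi than in RPT, with a median log2 fold change of -1.71. In RPT against RP, 9 were higher and 1 lower (median 0.70), and in RPTi against RP 8 were lower and 1 higher (median -1.13). Those with the smallest p were Fosl1, an AP-1 subunit, Etv1, a PEA3-type ETS factor, and Ccnd1, the G1 cyclin. Fosl1 was at 5.24 ± 1.02 CPM in RPTi, against 62.7 ± 1.18 CPM in RPT and 18.7 ± 1.21 CPM in RP (SD, n = 3). Etv1 was at 3.31 ± 0.35 CPM in RPTi, against 19.9 ± 1.33 CPM in RPT and 21.4 ± 1.05 CPM in RP, so it was lower with the inhibitor (-2.59, SE 0.10) but did not pass in RPT against RP (adjusted p = 0.409), a pattern seen also in Spred1. Ccnd1 was at 337 ± 15.8 CPM in RPTi, against 1025 ± 17.0 CPM in RPT and 662 ± 58.1 CPM in RP. The 2 exceptions in RPTi against RPT were the ephrin receptor gene Epha4, which was higher (0.99, SE 0.13), and Fos, which did not pass (0.49, SE 0.26, adjusted p = 0.152). Both were named after their values were seen.

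The other MAP kinase phosphatases, several of which act mainly on JNK and p38, went both ways in RPTi against RPT. There, 3 of 7 were lower, 2 were higher and 2 did not pass (median -0.27). In RPT against RP, 5 of 7 were higher and 2 did not pass (median 0.42). Dusp8, which acts on JNK and p38, was at 35.1 ± 0.74 CPM in RPTi, against 12.8 ± 1.37 CPM in RPT and 9.60 ± 0.85 CPM in RP, and so was 1.45 higher on the log2 scale in RPTi than in RPT (SE 0.09, adjusted p = 8.86e-08). Dusp1, an immediate early phosphatase of several MAP kinases, was at 59.0 ± 3.05 CPM in RPTi, against 48.6 ± 2.34 CPM in RPT and 36.4 ± 0.41 CPM in RP (0.28, SE 0.07, adjusted p = 0.00476 in RPTi against RPT). The cytoplasmic ERK phosphatase Dusp7, a close relative of Dusp6, was at 53.1 ± 3.80 CPM in RPTi, against 64.2 ± 3.04 CPM in RPT and 64.7 ± 0.33 CPM in RP. It was lower in RPTi than in RPT by a small amount (-0.27, SE 0.07, adjusted p = 0.00646) and did not pass in RPT against RP (-0.01, adjusted p = 0.930). Dusp9 and Dusp10 were higher in RPT than in RP (1.30 and 0.48) and lower in RPTi than in RPT (-1.11 and -0.37). Neither passed in RPTi against RP. Dusp9 was scarce, at 0.751 ± 0.20 CPM in RPTi, 1.63 ± 0.28 CPM in RPT and 0.654 ± 0.22 CPM in RP. Dusp2, never above 16 counts, was higher in RPT than in RP (1.28) and did not pass in RPTi against RPT. Dusp2, Dusp9 and Dusp10 are named after their values were seen.

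Of 17 other brakes on the route from receptor to ERK, 9 were lower, 1 was higher and 7 did not pass in RPTi against RPT (median -0.33). In RPT against RP, 3 were higher, 2 lower and 12 did not pass (median 0.07). Errfi1, a feedback inhibitor of the EGF receptor, was at 18.2 ± 1.28 CPM in RPTi, against 54.3 ± 1.07 CPM in RPT and 26.4 ± 1.44 CPM in RP, with the same order of groups as most of the feedback genes. It was lower in RPTi than in RPT (-1.58, SE 0.08, adjusted p = 6.71e-09) and higher in RPT than in RP (1.04, SE 0.07, adjusted p = 6.21e-07). The RAS GTPase-activating gene Rasal2 (-0.72, SE 0.08) and Cbl (-0.66, SE 0.08), a ubiquitin ligase for receptors, were lower in RPTi than in RPT. Nf1, which encodes the neurofibromin that Spred proteins recruit, was at 47.0 ± 2.28 CPM in RPTi, against 53.3 ± 1.67 CPM in RPT and 61.4 ± 4.67 CPM in RP. It did not pass in RPTi against RPT (-0.18, SE 0.07, adjusted p = 0.0627), was lower in RPT than in RP (-0.21, adjusted p = 0.0488) and in RPTi than in RP (-0.39, adjusted p = 0.00195), and is named for its link to Spred after its values were seen.

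The RAS-ERK core, from receptors to ERK itself, had 5 higher, 6 lower and 10 not passing of 21 in RPTi against RPT (median -0.03). In RPT against RP, 1 was higher, 3 were lower and 17 did not pass (median -0.01). Over all tested genes, 20.4% were higher and 21.1% lower in RPTi against RPT, and 13.6% and 15.2% in RPT against RP. The core genes with the smallest p were the 3 fibroblast growth factor receptors. Fgfr3, the receptor that restrains growth plate chondrocytes, was at 759 ± 24.0 CPM in RPTi, against 226 ± 9.15 CPM in RPT and 500 ± 13.0 CPM in RP, the opposite order to that of the feedback genes. Fgfr2 was at 538 ± 8.54 CPM in RPTi, against 308 ± 21.9 CPM in RPT and 510 ± 14.3 CPM in RP, and Fgfr1 was at 314 ± 11.6 CPM in RPTi, against 451 ± 20.2 CPM in RPT and 472 ± 17.1 CPM in RP. In RPTi against RPT the log2 fold changes were 1.75 (SE 0.05) for Fgfr3, 0.80 (SE 0.06) for Fgfr2 and -0.52 (SE 0.06) for Fgfr1.

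**Figure D4:**
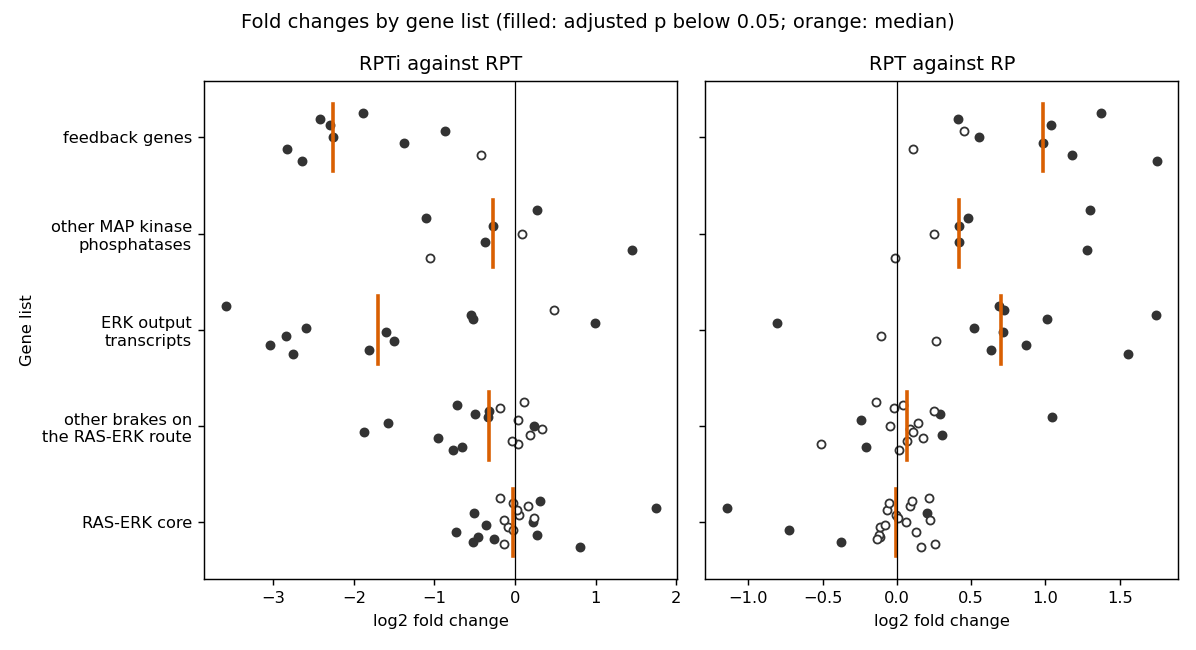
Log2 fold changes (horizontal axes) in RPTi against RPT and RPT against RP for the 9 feedback genes and the 4 lists of other pathway genes (vertical axis), 1 point per gene. Filled points passed an adjusted p of 0.05 and orange lines are medians, which in RPTi against RPT are -2.26 for the feedback genes, -0.27 for other MAP kinase phosphatases, -1.71 for ERK output transcripts, -0.33 for other brakes and -0.03 for the core.

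The closest patterns to 3 of the genes were sought among 9339 other genes with an assigned symbol and a mean of at least 5 CPM, as the root mean square difference of log2 CPM over the 9 libraries, each gene centred on its own mean. Nearest to Dusp6 were the integrin gene Itga3 (0.126), the chromatin protein gene Hmga2 (0.143) and the catenin gene Ctnnd2 (0.156). Nearest to Spry4 were the activin antagonist Fst (0.189), Itga3 (0.235) and Ptprn (0.238). Nearest to Spred1 were Flrt2 (0.0830), the phosphatase gene Ppm1l (0.0896) and the guanine deaminase gene Gda (0.0913). Among the 9 genes themselves the closest pair was Dusp5 and Spry2 (0.194), and the most distant was Dusp6 and Spry1 (1.10).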

How the data were processed

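The deposited values were raw read counts for Ensembl rat genes in 9 libraries, and FPKM values that the authors derived from those counts (count over gene length and library total, to a largest relative difference of 2.01e-13). Per the submitters' processing notes, the build was Rnor_6.0 and the tools include HISAT2, HTSeq 0.11.2 and DESeq2 1.26.0. The sources used here give neither their roles nor the annotation release or strand setting, so reads of overlapping or antisense genes cannot be told apart.

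Genes were kept by filterByExpr (minimum count 10, minimum total 15), which left 13856 of 18924 genes and removed 0.0259% of counts. Counts were scaled by TMM and fitted in 1 quasi-likelihood model over all 9 libraries (edgeR 4.0.16, R 4.3.3), with Benjamini-Hochberg adjustment over all tested genes. "Rose", "fell", "higher" and "lower" refer to an adjusted p below 0.05. The SE is the absolute fold change on the log2 scale over the root of its F value. One count corresponded to 0.0226 to 0.0323 CPM.

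Ratios of related genes used log2 of counts plus 0.5, with an exact permutation test of the F statistic over 1680 assignments of the 9 libraries, adjusted over 9 pairs. The fit and the permutation test were tested on simulated data. No library pair of a group agreed within sampling noise (chi-square per degree of freedom 5.06 to 27.2). Alternatives used DESeq2 1.42.0 and limma 3.58.1 on log2(FPKM + 1).

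The genes, lists and tests were chosen with earlier results of these data known. All 9 genes were named, and of each of the 4 other pathway lists the 3 with the smallest p in RPTi against RPT. From these lists, Epha4, Fos, Dusp2, Dusp9, Dusp10 and Nf1 were named as well, after their values were seen. No library was left out, and the labels give no batch.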

Additional observations from a re-analysis of the deposited data

How the results depend on the processing

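Each of the 27 fold changes of the 9 genes was recomputed under 17 alternatives (another scaling or none, other filters, DESeq2, only the 2 groups compared, a replicate block, log2(FPKM + 1) with limma, and each library left out). Of these 459 values, 451 kept their direction and their side of the threshold, 6 lost their call and 2 changed sign. The 2 were both of Spry1 in RPTi against RP, which passed under no setting: its log2 fold change of 0.04 became -0.0171 without TMM factors and ran from -0.209 without RP replicate 2 to 0.316 without RP replicate 3. The 6 were Spry4 in RPT against RP and Dusp4 in RPTi against RP, each with a library left out, as given above. With a library left out, called genes among the 9 numbered 6 to 7 in RPT against RP, 7 to 8 in RPTi against RP and 8 in RPTi against RPT. On log2(FPKM + 1), which compresses low genes, the fold change of Spry4 in RPTi against RPT shrank to -0.996 and that of Dusp4 to -1.20. Of all called genes, 38.8% were higher both in RPTi against RPT and in RPTi against RP with that unit.

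The ratios of related genes were less stable. Of 9 pairs, 7 passed, against 3 with an offset of 2 and from 1 to 8 with a library left out, where the test has fewer libraries. With the replicate number as a block, the exact permutation test passed 0 pairs (2 at an unadjusted p below 0.05), and the smallest p it allows was 0.0278. In the edgeR fit the block gave 7, 8 and 8 called genes among the 9 in RPT against RP, RPTi against RPT and RPTi against RP. Whether same-numbered libraries share more than a number is not stated. Of 9 such pairs, 2 had a correlation of deviations over 0.1 (range -0.11 to 0.12). Among the libraries, 3 of 9 correlated best with their own number. These weak correlations cannot settle whether libraries were paired. Over all genes, the edgeR block raised the called genes from 3999 to 5074 in RPT against RP and from 5745 to 6698 in RPTi against RPT. The ratio of Spry2 to Spry4 barely differed between RPTi and RPT (0.05 on the log2 scale), and with a library left out this difference ran from -0.061 to 0.15, with the sign turned without RPT replicate 1 or RPTi replicate 3. A ratio of FPKM differs from that of counts by a constant per pair and gave no separate test. Depth limits Spry1, with 16 to 40 counts per library.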

Other observations

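The table held 12 further dual-specificity phosphatase rows outside the lists above, chosen after the results were seen, of which 11 were tested. Most of them are atypical phosphatases that lack the ERK-binding domain of the MAP kinase phosphatases. In RPTi against RPT, 2 were higher (Dusp15 and Dusp27), 1 was lower (Dusp18) and 8 did not pass. The same 2 were lower in RPT against RP. Over all tested genes, 20.4% were higher and 21.1% lower in RPTi against RPT, and 15.2% were lower in RPT against RP. Dusp27 was at only 0.381 ± 0.13 FPKM in RPTi, against 0.106 ± 0.053 FPKM in RPT and 0.343 ± 0.10 FPKM in RP (SD, n = 3; log2 fold change 1.90 in RPTi against RPT, adjusted p = 0.00221, edgeR). Dusp15 was at 0.571 ± 0.066 FPKM in RPTi, against 0.322 ± 0.017 FPKM in RPT and 0.503 ± 0.084 FPKM in RP (0.89, adjusted p = 0.00655). Dusp18 was at 14.2 ± 0.33 FPKM in RPTi, against 17.2 ± 0.37 FPKM in RPT and 17.2 ± 0.84 FPKM in RP (-0.21, adjusted p = 0.0170). Dusp3, which can dephosphorylate ERK, was at 14.4 ± 0.58 FPKM in RPTi, against 13.5 ± 0.65 FPKM in RPT and 11.9 ± 0.060 FPKM in RP, and passed in RPTi against RP (0.33, adjusted p = 0.00265).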
